A study of Mus musculus with 2 samples.

Results

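The enzymes described here carry out the conjugation step, also called phase II, of drug and hormone metabolism: the UDP-glucuronosyltransferases (Ugt), the soluble glutathione S-transferases (Gst) and the sulfotransferases (Sult). Members were taken by gene symbol from the table of protein-coding transcripts: the Ugt1a, Ugt2a, Ugt2b and Ugt3a genes, the Gsta, Gstm, Gstp, Gstt, Gstz, Gsto and Gstk genes, and the numbered Sult genes. This gave 63 of the 20317 genes with a symbol, namely 20 Ugt, 22 Gst and 21 Sult genes. Where a gene had several transcripts (5 of the 63), the one with the highest mean level stood for it.

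The study asked what repeated carbon tetrachloride (CCl4) injury changes in the RNA of mouse hepatocytes. Both libraries were made from primary hepatocytes of male wild-type (WT) C57BL/6J mice, which were 5 weeks old when obtained. The control animals received intraperitoneal injections of oil, and the model animals received a 20% solution of CCl4 in mineral oil at 2.5 ml of CCl4 per kg body weight, 2 times a week. The labels give the course of injections as 8 weeks and the methods as 4 weeks, so its length is uncertain. Hepatocytes were freed by enzyme perfusion and collected on a density gradient. Each group is 1 library, and how many mice went into each was not given in the sources used here.

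Glucuronosyltransferases join glucuronic acid to bilirubin, steroids, bile acids and drugs, which makes these molecules soluble enough to leave in bile or urine. Glutathione transferases couple reactive electrophiles, including products of lipid peroxidation, to glutathione. Sulfotransferases move sulfate from the donor PAPS onto phenols, amines, steroids and bile acids. In liver, most of these genes are expressed mainly in hepatocytes, and many are controlled by the nuclear receptors CAR and PXR, the aryl hydrocarbon receptor, the hepatocyte factor HNF4A, or the oxidative stress factor NRF2.

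Among the conjugating enzymes compared, far more were called lower than higher in the CCl4 library, and the 2 called higher were glutathione transferases. The levels are RPKM, read counts scaled by transcript length and by library size, as the authors gave them. A gene was compared when it reached 1 RPKM in at least 1 library, and it was called higher or lower when the log2 ratio of CCl4 to oil, with 0.1 RPKM added to both, was at least 1 in either direction. Of the 63 members, 43 could be compared. Of these, 18 were called lower (41.9%) and 2 higher (4.65%), and 23 were not called. Over all 12012 genes compared, 5.68% were called lower and 19.3% higher. Scaled to the median gene, 30 members were lower and 2 higher, against 10.8% and 10.7% of all genes. The median log2 ratio was -0.86 for the members and 0.37 for all genes. Of the members, 34 had a log2 ratio below 0 and 9 above 0. With 1 library per group there is no replicate check, no test was run across genes, and "higher" and "lower" compare these 2 libraries.

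**Figure D1:**
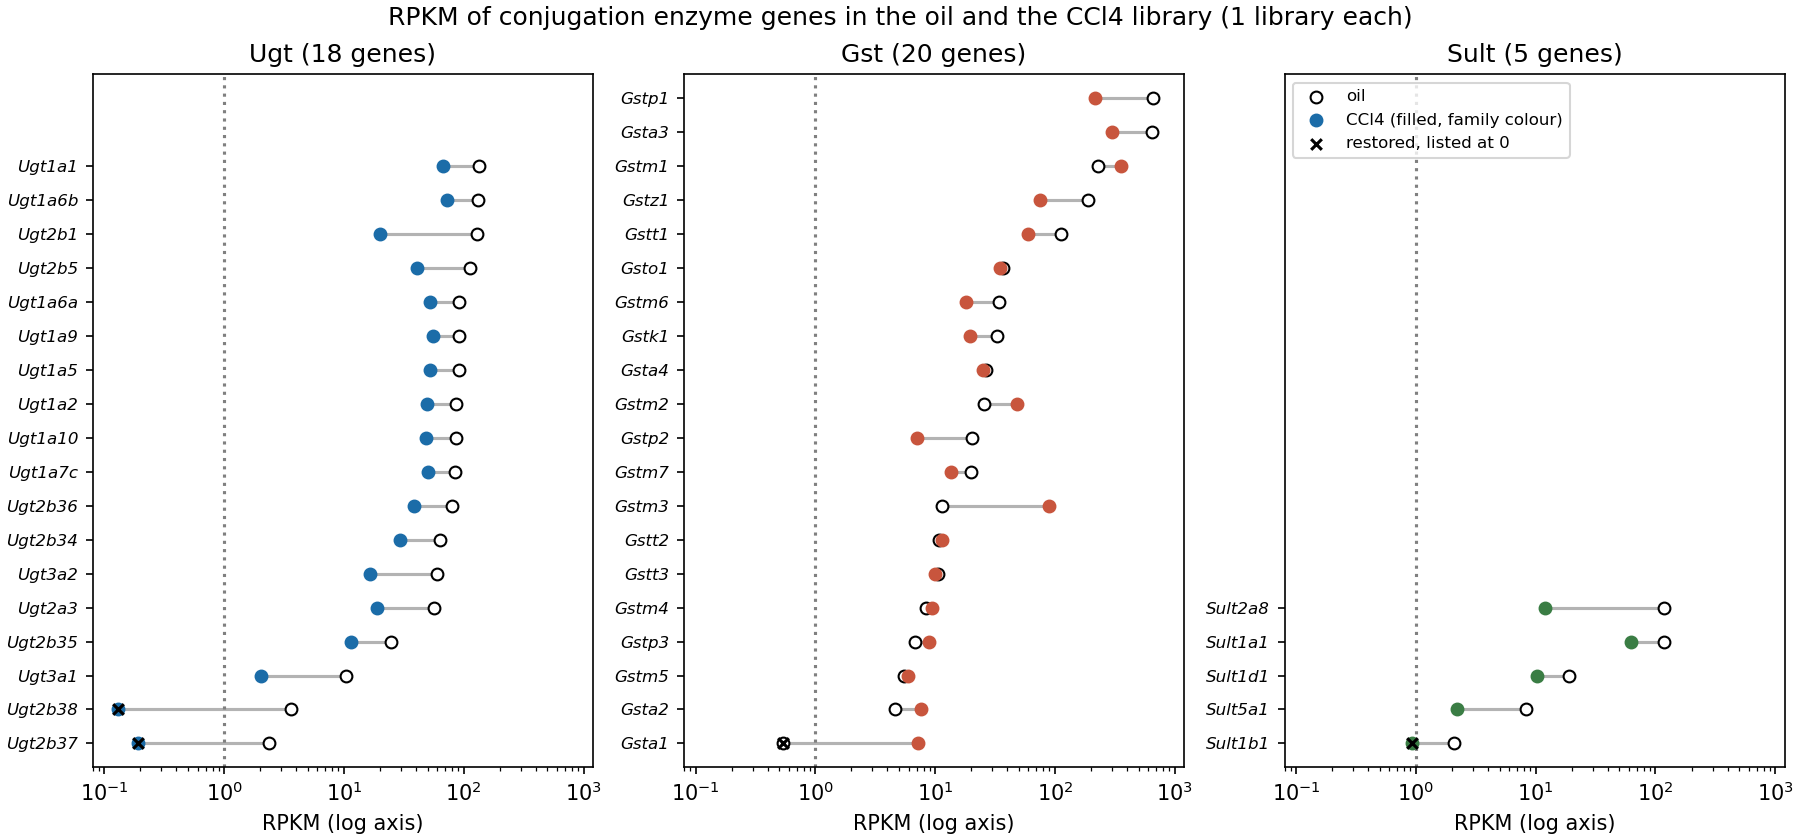
RPKM (horizontal, log scale) of the 43 compared members in the oil library (open circles) and the CCl4 library (filled circles), 1 row per gene in a panel per family, ordered by the oil level; crosses mark restored values that were listed at 0, and the dotted line marks 1 RPKM. The filled circle lies left of the open one for all 18 Ugt and all 5 Sult genes, while Gsta1 and Gstm3 have the widest gaps to the right.

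Summed over the members, the level was 3697 RPKM in oil and 2033 RPKM after CCl4. These sums count reads shared by the Ugt1a transcripts repeatedly, and without Ugt1a they were 2900 and 1586 RPKM. As a share of the summed RPKM of all genes, the members held 1.10% in oil and 0.723% in CCl4. The Ugt share was 0.397% and 0.222%, the Gst share 0.619% and 0.469%, and the Sult share 0.0788% and 0.0312%. All 3 shares were thus lower in the CCl4 library. The 95% counting interval of a member's log2 ratio, taken with nothing added to the RPKM, had a median half-width of 0.104 and a largest half-width of 0.94. These intervals rest on lower bounds for the number of reads and cover counting error only, not the spread between animals. For 6 members the interval included 0. RNA was taken from bulk preparations, in which fewer hepatocytes and less of an RNA per hepatocyte cannot be told apart.

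**Figure D2:**
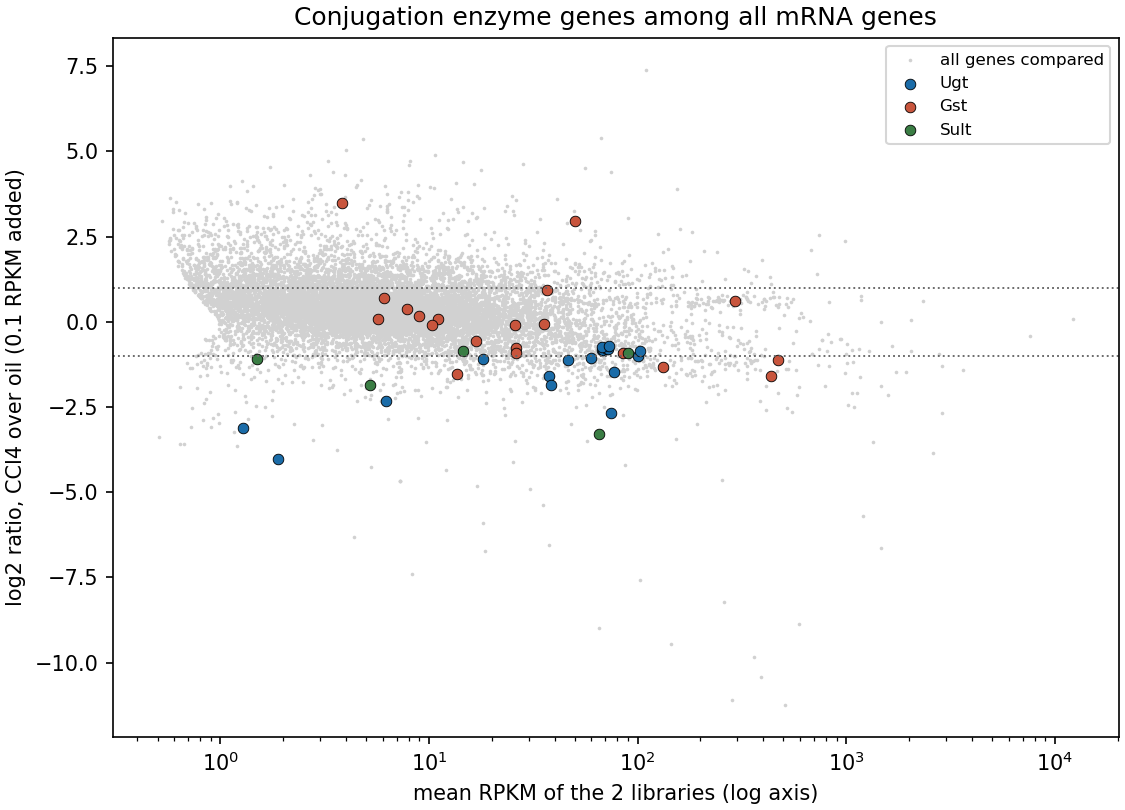
Mean RPKM of both libraries (horizontal, log scale) against the log2 ratio of CCl4 to oil (vertical) for the 12012 genes compared (grey points), with members coloured by family and dotted lines at 1 and -1. All Ugt and Sult members lie below -0.7, and Gst members lie on both sides of 0.

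The Ugt2 genes stood lower in the CCl4 library without exception among those compared. They lie side by side on chromosome 5, in 10 genes spread over chr5:86889770-87490871 (GRCm38, the mm10 assembly). Of these, 8 were compared and 8 were called lower, against 5.68% of all genes. Ugt2a1, known from olfactory tissue, and Ugt2a2 were listed at 0 in both libraries. The Ugt2 enzymes glucuronidate mainly steroids, bile acids and lipophilic drugs.

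Ugt2b1 was the most abundant Ugt2 gene in oil, at 129.3 RPKM, but had 20.2 RPKM in CCl4, below Ugt2b5, Ugt2b36 and Ugt2b34, a log2 ratio of -2.67 (95% counting interval -2.78 to -2.58). Ugt2b5 had 113.0 RPKM in oil and 40.9 RPKM in CCl4, a log2 ratio of -1.46. These 2 genes had similar levels in oil, but the ratio of Ugt2b1 was further from 0 and the intervals of the 2 ratios did not overlap. Ugt2b36 had 80.6 RPKM in oil and 38.8 RPKM in CCl4, a log2 ratio of -1.05. Ugt2b34 had 63.7 and 29.1 RPKM, a log2 ratio of -1.13. Ugt2b35 had 24.7 and 11.5 RPKM, a log2 ratio of -1.10. These 3 lay close together, just past the limit for a call. Ugt2a3, the liver and gut member of its subfamily, had 56.5 RPKM in oil and 18.8 RPKM in CCl4, a log2 ratio of -1.58.

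The least abundant pair of the 8 compared genes was close to undetected after CCl4. Ugt2b38 had 3.63 RPKM in oil and was listed at 0 in CCl4, where 0 stands for a value under 1 RPKM, so it was at least 3.63-fold lower. Ugt2b37 had 2.39 RPKM in oil and was likewise listed at 0 in CCl4, which makes it at least 2.39-fold lower. The values restored for the CCl4 library, 0.131 RPKM for Ugt2b38 and 0.189 RPKM for Ugt2b37, give log2 ratios of -4.02 and -3.10.

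The Ugt3a genes, whose products use UDP sugars other than UDP-glucuronic acid, were lower too. Ugt3a2 had 60.1 RPKM in oil and 16.7 RPKM in CCl4, a log2 ratio of -1.84. Ugt3a1 had 10.5 RPKM in oil and 2.02 RPKM in CCl4, a log2 ratio of -2.32 (-2.72 to -2.05). Leaving the Ugt1a locus aside, 10 of the 10 Ugt genes compared were called lower, against 5.68% of all genes, with a median log2 ratio of -1.71.

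**Figure D3:**
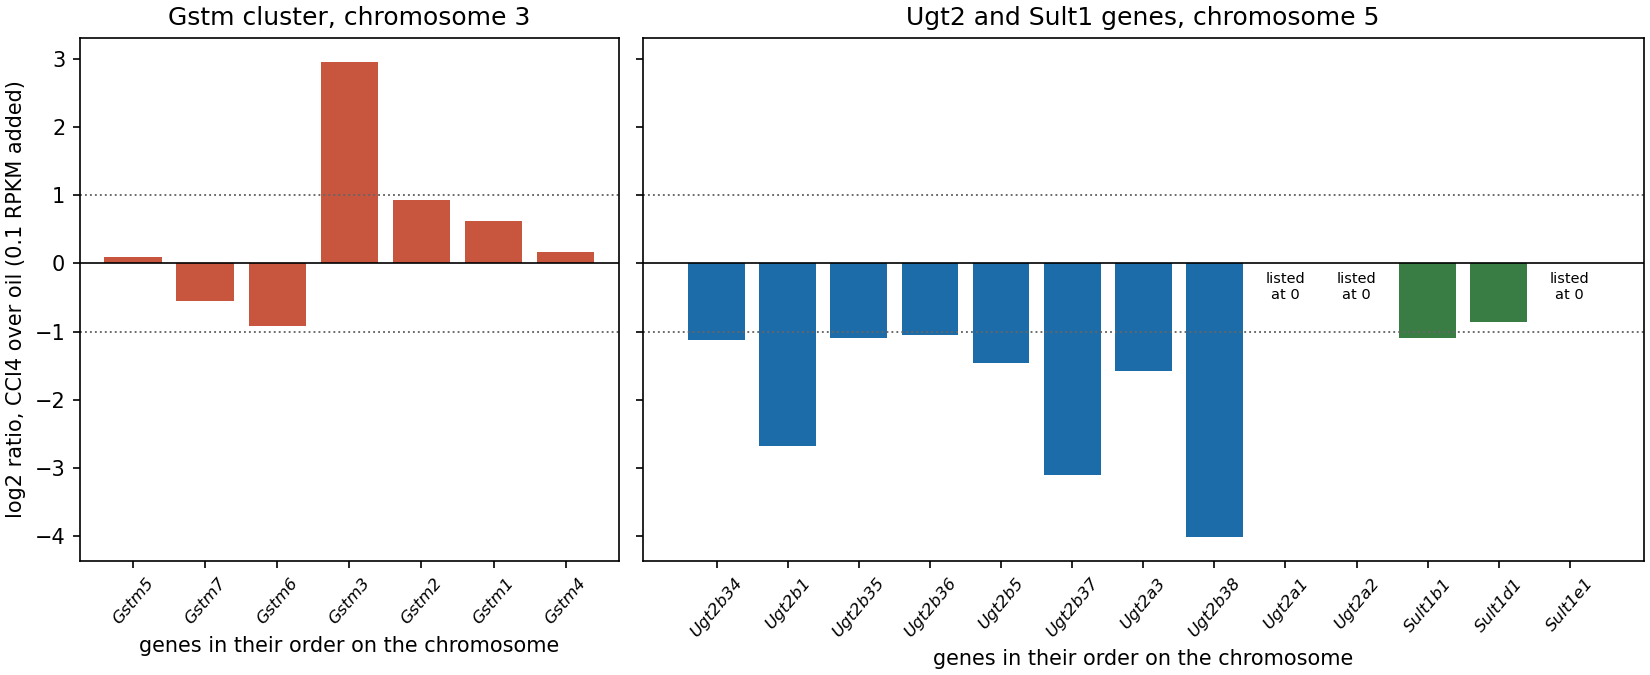
Log2 ratio of CCl4 to oil (vertical, bars from 0) for the Gstm cluster (left) and for the Ugt2 genes with the neighbouring Sult1 genes (right), in chromosomal order (horizontal, not to scale), with dotted lines at 1 and -1. All 8 compared Ugt2 genes are below -1, whereas the Gstm genes range from -0.91 for Gstm6 to 2.96 for Gstm3.

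At the Ugt1a locus on chromosome 1 (chr1:88055411-88220002, GRCm38), several first exons, each with its own promoter, are spliced to the same downstream exons. Reads from the shared exons cannot be assigned to a single isoform, and the 8 values are therefore not independent. In oil the 8 Ugt1a transcripts had 85.1 to 134.1 RPKM, and in CCl4 48.5 to 72.9 RPKM, so the 2 ranges did not overlap. The log2 ratios lay between -1.01 and -0.72. Ugt1a1, which glucuronidates bilirubin, had 134.1 RPKM in oil and 66.6 RPKM in CCl4, a log2 ratio of -1.01 (-1.08 to -0.94). It was the one Ugt1a transcript past the limit for a call, and its counting interval did not overlap those of the other 7. With a pseudocount of 1 RPKM it lost this call, and scaled to the median gene all 8 were called lower, so the call does not set it apart. Ugt1a6b, of the phenol-conjugating Ugt1a6 type, had 131.3 RPKM in oil and 72.9 RPKM in CCl4, a log2 ratio of -0.85. Of the remaining 6, Ugt1a6a had 91.4 RPKM in oil, Ugt1a9 91.3, Ugt1a5 91.1, Ugt1a2 86.9, Ugt1a10 85.9 and Ugt1a7c 85.1 RPKM. Their log2 ratios ran from -0.82 (Ugt1a10) to -0.72 (Ugt1a9), a spread smaller than the width of their counting intervals.

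The glutathione transferases held both lower and higher calls. Of 22 listed genes, 20 were compared, 4 were called lower, 2 were called higher and 14 were not called. The 20% called lower compare with 5.68% of all genes, and the 10% called higher with 19.3%. Their median log2 ratio was -0.08, against 0.37 for all genes, with 11 genes below 0 and 9 above 0. The 4 called lower included 3 of the 4 most abundant Gst genes, and the summed Gst level was 2090 RPKM in oil and 1320 RPKM in CCl4.

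Gstp1 was the most abundant member of all in oil. This pi-class enzyme is known in mouse liver for its higher level in males. It had 657.0 RPKM in oil and 216.4 RPKM in CCl4, a log2 ratio of -1.60 (-1.64 to -1.57). Its near copy Gstp2 had 20.2 and 6.99 RPKM, a log2 ratio of -1.52. Reads may be split between these copies by the authors' counting, and the sum of both was 677.3 RPKM in oil and 223.4 RPKM in CCl4, with the same log2 ratio of -1.60 as Gstp1. The third gene of the group, Gstp3, differed from them, with 6.82 RPKM in oil, 8.89 RPKM in CCl4 and a log2 ratio of 0.38, close to the median of all genes.

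Gsta3 encodes the alpha-class enzyme that protects mice from aflatoxin epoxide. It had 646.9 RPKM in oil and 299.3 RPKM in CCl4, a log2 ratio of -1.11 (-1.14 to -1.08). It stood close to Gstp1 in oil and above it in CCl4. Gstz1, the maleylacetoacetate isomerase of tyrosine breakdown, had 189.6 RPKM in oil and 75.2 RPKM in CCl4, a log2 ratio of -1.33. Gstt1, which conjugates small halogenated alkanes, had 111.5 RPKM in oil and 59.4 RPKM in CCl4. Its log2 ratio of -0.91 was not called.

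The mu-class genes on chromosome 3 (7 genes over chr3:107895854-108045179, GRCm38) did not move together. Gstm3 had 11.4 RPKM in oil and 89.4 RPKM in CCl4, a log2 ratio of 2.96 (2.82 to 3.13) and a 7.84-fold difference. Its neighbours were less different. Gstm2 had 25.5 and 48.5 RPKM, a log2 ratio of 0.92. Gstm1, the main mu-class enzyme, had 229.8 RPKM in oil and 353.4 RPKM in CCl4, a log2 ratio of 0.62 (0.58 to 0.66). Neither was called, although both intervals lay above 0 and above the median of all genes. On the other side of Gstm3, the next 2 genes lay below 0. Gstm6 had 34.1 and 18.1 RPKM, a log2 ratio of -0.91, and Gstm7 had 19.9 and 13.5 RPKM, a log2 ratio of -0.55. Gstm4 (8.40 and 9.47 RPKM) and Gstm5 (5.53 and 5.89 RPKM) had log2 ratios of 0.17 and 0.09, whose intervals included 0 and which fell below 0 when the ratios were scaled to the median gene (-0.20 and -0.28). The summed Gstm level was 334.6 RPKM in oil and 538.2 RPKM in CCl4, the one abundant group of members with a higher sum after CCl4.

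The other called gene was Gsta1, an alpha-class enzyme. It was listed at 0 in oil and had 7.13 RPKM in CCl4, so it was at least 7.13-fold higher. With the value restored for oil, 0.541 RPKM, the log2 ratio was 3.50 (3.11 to 4.40). The near copy Gsta2 had 4.60 RPKM in oil and 7.56 RPKM in CCl4, a log2 ratio of 0.71 that was not called. The sum of Gsta1 and Gsta2 was 5.14 RPKM in oil and 14.7 RPKM in CCl4. Both genes were far below Gsta3, at 299.3 RPKM in CCl4.

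**Figure D4:**
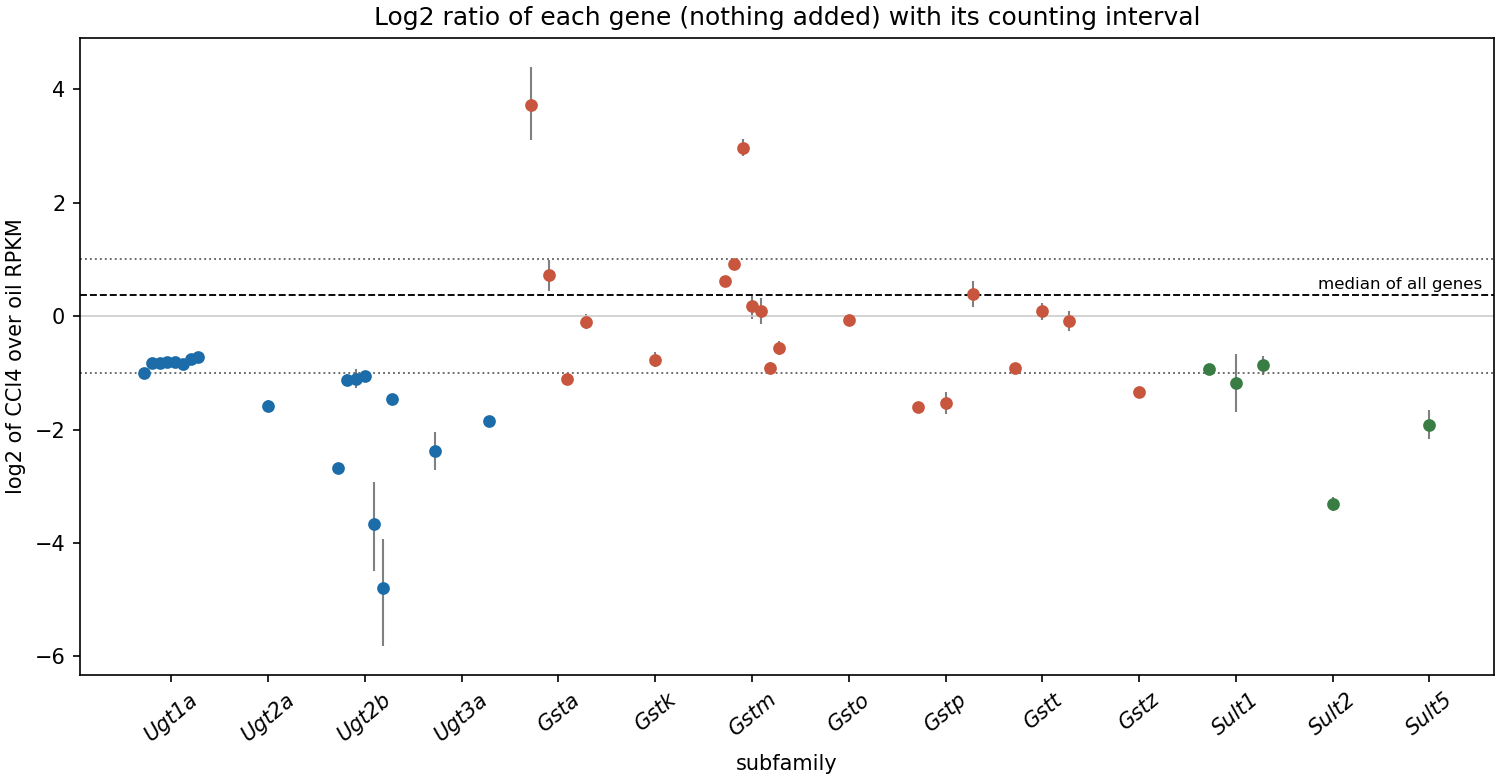
Log2 ratio of CCl4 to oil (vertical, nothing added to the RPKM) for each compared member, grouped by subfamily (horizontal), with bars for the 95% counting interval, dotted lines at 1 and -1 and a dashed line at the median of all genes. The 2 points above 1 are Gsta1 and Gstm3, and the 5 below -2 are Sult2a8, Ugt2b37, Ugt2b38, Ugt2b1 and Ugt3a1.

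Promoter windows from 250 bases before to 50 bases after the start site (RefSeq, GRCm38.p6) were found for 55 of the 63 members, 66 windows in all. They were searched for the core of the antioxidant response element, which NRF2 binds (TGACNNNGC, both strands). It was found in 3 of the 66 member windows (4.55%), against 12.4% of all windows, and all 3 belonged to Gst genes. They are shown 5′ to 3′ on the strand of the gene, with the match in capitals, as the member windows that hold this element. The stretches are chr1:21240439-21240497 (plus strand), chr3:107895787-107895845 (plus) and chr3:107931710-107931768 (minus), with the match beginning at positions -121, -42 and -129 from the start site of the window, in the order shown. For Gstm7 the whole window (chr3:107931565-107931864) lies inside the span of the gene (chr3:107926334-107931877). The match is thus inside the gene span, and whether it lies before the start of the transcript compared was not determined.
Gsta3: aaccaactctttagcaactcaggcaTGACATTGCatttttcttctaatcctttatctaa
Gstm5: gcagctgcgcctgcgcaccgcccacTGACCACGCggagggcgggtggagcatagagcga
Gstm7: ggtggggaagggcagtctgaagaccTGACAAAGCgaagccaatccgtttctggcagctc

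A match describes the letters only, and whether a factor is bound there was not measured. None of these 3 genes was called higher: the log2 ratios were -1.11 for Gsta3, 0.09 for Gstm5 and -0.55 for Gstm7. The 5 letters GCGTG, the core bound by the aryl hydrocarbon receptor, were in 12 of the 66 member windows (18.2%) and 32.4% of all windows, the windows of Gsta1 and Gstp1 among them. The match in Gstm5 overlaps one of these, on the other strand.

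The remaining detected Gst genes were not called. Gsta4, which removes the lipid peroxidation product 4-hydroxynonenal, had 26.7 RPKM in oil and 24.9 RPKM in CCl4, a log2 ratio of -0.10. Gsto1, an omega-class thioltransferase, had 36.5 and 35.0 RPKM, a log2 ratio of -0.06. The counting intervals of both included 0. Gstk1, the kappa-class enzyme of mitochondria and peroxisomes, had 33.1 and 19.4 RPKM, a log2 ratio of -0.77. Gstt2 had 10.7 and 11.4 RPKM, a log2 ratio of 0.08 (-0.29 when scaled to the median gene). Gstt3 had 10.6 and 9.98 RPKM, a log2 ratio of -0.09.

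Few sulfotransferases were detected, and those detected were lower in the CCl4 library. Of 21 listed Sult genes, 5 were compared, 3 were called lower and the other 2 lay below 0. Over all genes, 5.68% were called lower. Sult2a8, a liver sulfotransferase of the steroid and bile acid group, had 118.6 RPKM in oil and 11.9 RPKM in CCl4. This is 9.95-fold lower, a log2 ratio of -3.30 (-3.44 to -3.20). Among members at 50 RPKM or more in oil, none had a ratio further from 0. Sult1a1, the main phenol sulfotransferase, was just as abundant in oil at 118.2 RPKM but kept 62.4 RPKM in CCl4, a log2 ratio of -0.92 (-0.99 to -0.85) that was not called. The intervals of these 2 abundant genes lay far apart.

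Sult5a1 had 8.28 RPKM in oil and 2.20 RPKM in CCl4, a log2 ratio of -1.87 (-2.17 to -1.66). Sult1d1, which sulfates catecholamines, had 18.8 and 10.3 RPKM, a log2 ratio of -0.86. Sult1b1, which sulfates thyroid hormones, had 2.07 RPKM in oil and was listed at 0 in CCl4. Its restored value of 0.921 RPKM gives a log2 ratio of -1.09 (-1.68 to -0.67), so a smaller difference than the limit for a call is within counting error. The summed Sult level was 266.0 RPKM in oil and 87.7 RPKM in CCl4.

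The other 20 members were listed at 0 in both libraries and could not be compared. They were 16 Sult, 2 Gst and 2 Ugt genes. Among the Sult genes they included Sult1e1, which inactivates estrogens, Sult2a1 to Sult2a7, several of which are typical of female mouse liver, Sult2b1 and the brain form Sult4a1. Also listed at 0 were Sult1c1, Sult1c2, Sult3a1, Sult3a2, Sult6b1 and Sult6b2, and outside this family Gsto2, Gstt4, Ugt2a1 and Ugt2a2. A value under 1 RPKM was not detectable in these tables. The symbols Ugt1a8 and the pseudogene Sult2a-ps2 had no matching transcript and were not analysed here.

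Calls were spread unevenly over expression level. Because the oil level is itself part of the ratio, this split is a description only. Of all genes at 50 RPKM or more in oil, 32.6% were called lower and 5.44% higher, against 3.40% and 20.5% of those under 50 RPKM. Of the members, 21 were at 50 RPKM or more in oil, of which 11 were called lower (52.4%) and 0 higher, with a median log2 ratio of -1.01 against -0.60 for all genes at this level. All but Gstm1 of these 21 lay below 0. Under 50 RPKM, 7 of 22 members were called lower (31.8%) and 2 higher, with a median of -0.33 against 0.40 for all genes at this level. For the phase I enzymes, the cytochrome P450 genes of families 1 to 3, 22 of 37 compared genes were called lower (59.5%) and 5 higher (13.5%). Over all genes at any level, these shares were 5.68% and 19.3%. The P450 genes had a median of -1.27. Their summed level was 3529 RPKM in oil and 1287 RPKM in CCl4.

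The genes that supply the conjugating enzymes were also read from fixed lists. UDP-glucuronic acid supply had 1 of 6 genes called lower and 1 higher, where 5.68% and 19.3% of all genes were called. Ugdh, which makes UDP-glucuronic acid, had 36.7 RPKM in oil and 18.1 RPKM in CCl4, a log2 ratio of -1.02. Gusb, the lysosomal enzyme that removes glucuronic acid, had 11.9 and 37.1 RPKM, a log2 ratio of 1.63. For PAPS supply and sulfate entry, 2 of 8 genes were called lower and 1 higher. The higher calls in these short lists are thus near the share over all genes. Papss1, a PAPS synthase, had 3.81 and 8.81 RPKM, a log2 ratio of 1.19 that falls short of the limit when taken relative to the median gene. Bpnt1, which degrades the spent donor, had 23.4 and 11.2 RPKM, and Suox, the sulfite oxidase that makes sulfate, had 38.0 and 18.8 RPKM, with log2 ratios of -1.05 and -1.01. With a pseudocount of 1 RPKM, Ugdh, Bpnt1 and Suox all fall short of the limit.

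For glutathione synthesis and recycling, 4 of 15 genes were called lower and 0 higher, with a median log2 ratio of -0.69. Over all genes, 5.68% were called lower and 19.3% higher. Gclc, the catalytic subunit of the rate-limiting enzyme of glutathione synthesis, had 53.8 RPKM in oil and 24.6 RPKM in CCl4, a log2 ratio of -1.12. Cbs, at the entry of homocysteine into cysteine synthesis, had 127.1 and 40.2 RPKM, a log2 ratio of -1.66. Gnmt, which uses the methyl donor upstream of it, had 1416 and 609.5 RPKM, a log2 ratio of -1.22. Chac1, which breaks glutathione down, was also called lower, with 5.30 and 1.31 RPKM and a log2 ratio of -1.94, so the 4 calls span both making and degrading steps. Gpx1, a glutathione peroxidase and the most abundant gene of the list, had 1463 and 844.0 RPKM, a log2 ratio of -0.79.

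Of the 3 compared genes in the list of microsomal transferases and Hpgds, 1 was called lower and 1 higher. This list is too short to set against the 5.68% lower and 19.3% higher of all genes. Mgst1, the abundant microsomal enzyme, had 1183 RPKM in oil and 477.2 RPKM in CCl4, a log2 ratio of -1.31. Mgst3 had 6.98 and 14.0 RPKM, a log2 ratio of 0.99. Hpgds, the sigma-class transferase that makes prostaglandin D and is known from immune cells, was listed at 0 in oil and had 5.91 RPKM in CCl4, at least 5.91-fold higher.

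Of the other conjugating enzymes, 11 of 16 were called lower and 0 higher, against 5.68% and 19.3% of all genes. Their median log2 ratio was -1.41. The methyltransferases Inmt and Nnmt were among those called lower. Inmt had 557.5 RPKM in oil and 210.6 RPKM in CCl4, a log2 ratio of -1.40. Nnmt, which methylates nicotinamide, had 110.4 and 36.3 RPKM, a log2 ratio of -1.60. Lower calls also covered amino acid conjugation. Baat, which joins bile acids to taurine, had a log2 ratio of -1.76. Glyat, which joins acyl groups to glycine, had -1.68. Slc27a5, Acsm1, Acsm3 and Acsm5, which activate the acids for this step, had -1.40, -1.71, -1.09 and -1.42. Further lower calls included Nat8 at -2.13 and the soluble epoxide hydrolase Ephx2 at -1.62. The microsomal epoxide hydrolase Ephx1 had 84.7 and 92.8 RPKM, a log2 ratio of 0.13, and scaling to the median gene puts this value below 0.

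**Figure D5:**
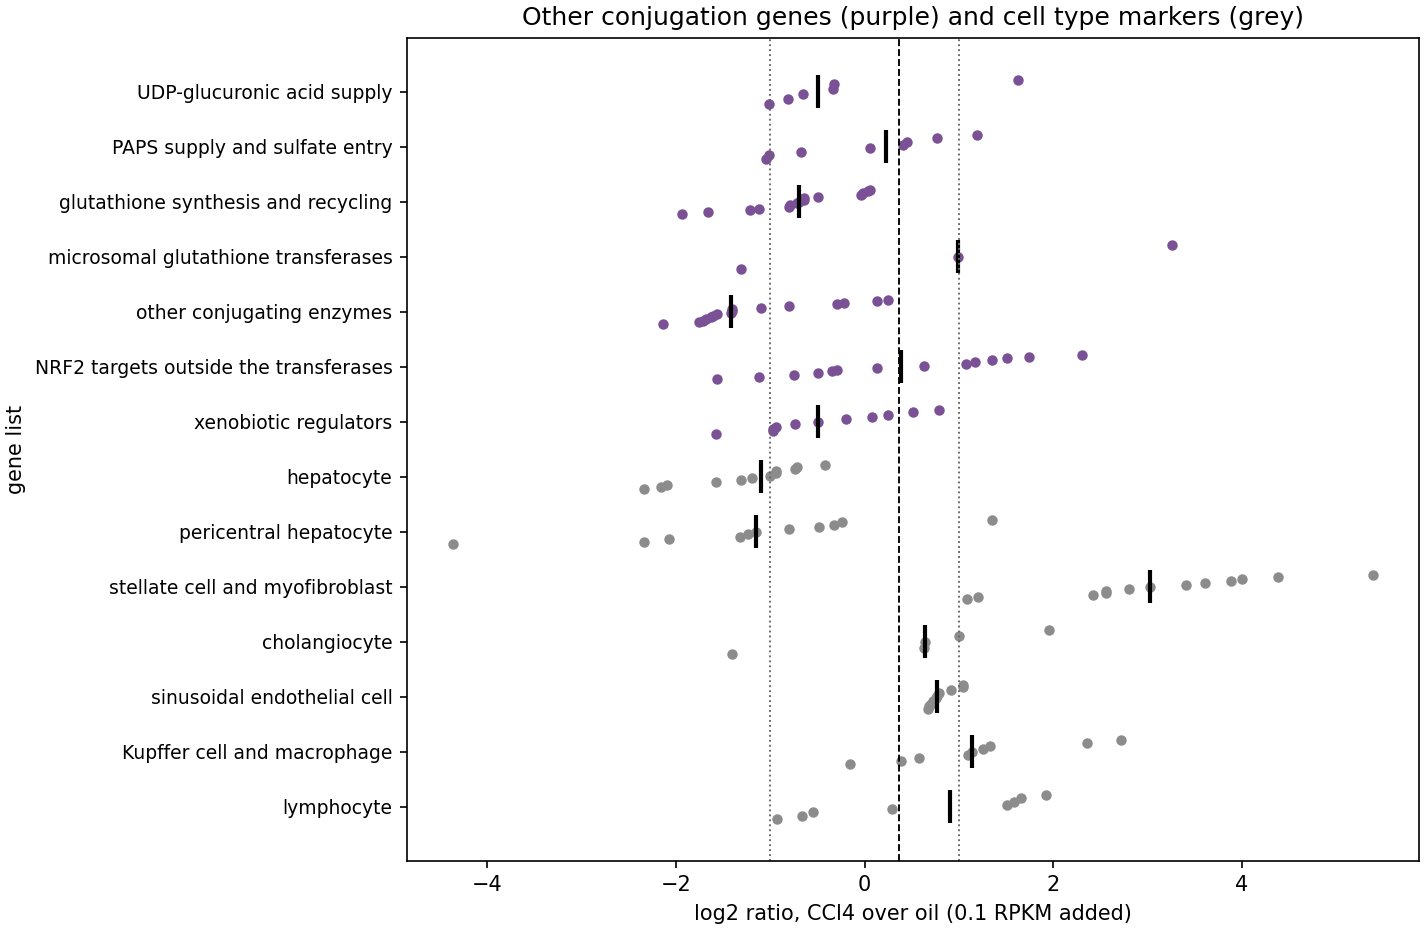
Log2 ratio of CCl4 to oil (horizontal) for the genes of each list (vertical), 1 point per gene, with a thick line at each list's median, dotted lines at 1 and -1 and a dashed line at the median of all genes. The median is -1.41 for the other conjugating enzymes, -1.09 for the hepatocyte markers and 3.02 for the stellate cell and myofibroblast markers.

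Genes controlled by NRF2 outside the transferases gave 6 higher and 2 lower calls among 14 compared, with a median log2 ratio of 0.38, near the 0.37 of all genes, of which 19.3% were called higher. Higher were Cbr3 (2.30), Akr1b8 (1.75), Nqo1 (1.51), Hmox1 (1.35), Pgd (1.17) and G6pdx (1.07), which encode reductases, the heme oxygenase and enzymes of NADPH supply. Lower were Osgin1 (-1.56) and Gclc. Hmox1, Pgd and G6pdx fall short of the limit when ratios are taken relative to the median gene. Of 11 regulators compared, 1 was called lower, a share near the 5.68% of all genes. This was Hnf4a, with 148.9 RPKM in oil and 50.1 RPKM in CCl4, a log2 ratio of -1.57. The receptors CAR (Nr1i3, -0.97), PXR (Nr1i2, -0.94) and PPAR-alpha (Ppara, -0.98) lay just short of the limit, and Nfe2l2, which encodes NRF2, had 0.79.

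Markers of the cells in each preparation were read from fixed lists in the same way. The defining hepatocyte markers were high in both libraries, with Alb at 8656 RPKM in oil and 6476 RPKM in CCl4. All 12 hepatocyte markers had ratios below 0 and 6 were called lower, against 5.68% of all genes, with a median log2 ratio of -1.09. Their sum was 24363 RPKM in oil and 13109 RPKM in CCl4. Of 11 markers of pericentral hepatocytes, the zone where many conjugating enzymes are highest and CCl4 is activated, 6 were called lower and 1 higher, with a median of -1.15. Over all genes, 5.68% were called lower and 19.3% higher. The 1 higher call was Axin2, which was listed at 0 in oil and had 2.06 RPKM in CCl4. Cyp2e1, the enzyme that activates CCl4, had 644.7 and 127.8 RPKM.

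Markers of other liver cells were called higher to different extents, where 19.3% of all genes were called higher and 5.68% lower. All 13 stellate cell and myofibroblast markers were called higher, with a median log2 ratio of 3.02 and a sum of 90.1 RPKM in oil and 932.5 RPKM in CCl4. Of 9 Kupffer cell and macrophage markers, 6 were called higher and 3 were not called, and the sum was 1463 and 3973 RPKM. When ratios are taken relative to the median gene, Adgre1, Cd5l, C1qa and C1qb fall short of the limit, which leaves Marco and Lyz2. Clec4f, which defines resident Kupffer cells, had 282.6 and 254.5 RPKM, and was thus well detected in both libraries. The 10 sinusoidal endothelial markers all had ratios above 0, of which 2 were called, a share near the 19.3% of all genes, with sums of 617.1 and 1063 RPKM. Of 10 cholangiocyte markers, 5 were compared, with 2 called higher and 1 lower and sums of 77.0 and 180.0 RPKM, while the others, among them Sox9, Cftr, Muc1 and Cldn7, were at 0 in both. Of 8 lymphocyte markers compared, 4 were called higher, with sums of 16.2 and 28.7 RPKM and Cd3e at 0 in both. Relative to the median gene, Timp1 and Stx2 of the stellate list, Lyve1 and Fcgr2b of the endothelial list and Krt19 also fall short. The part of these other cells in the lower levels of the conjugating enzymes, or in the higher Gstm3, Gsta1 and Hpgds, was not tested.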

How the data were processed

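RNA-seq of 1 oil and 1 CCl4 hepatocyte library was analysed. The submitters' processing notes name CASAVA 1.4, TopHat2 and the mm10 genome. The counting program and annotation version were not given in the sources used here. The authors deposited RPKM per RefSeq transcript for protein-coding and noncoding RNAs, with no value between 0 and 1 (values under 1 are listed as 0). They also deposited read counts, RPKM and transcript lengths for newly assembled noncoding transcripts. Their tables further hold log2 ratios, p-values and q-values of their own comparison. None of these is printed, and the deposited log2 column served only to restore values listed at 0 (4 members).

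The mRNA table held 27457 transcripts, of which 27049 matched a symbol. RPKM was compared as log2(RPKM + 0.1) with a minimum of 1 RPKM in a library. Library sizes of 57992583 (oil) and 64655569 (CCl4) reads were recovered from the whole-read steps of noncoding genes under 400 bases, 199 of 206 and 212 of 219 of which gave whole reads. Lower bounds on member reads (at least 11) gave the 95% counting intervals, from an exact binomial split of the reads. On 1397 noncoding transcripts with deposited counts, the recovered reads never exceeded the count and equalled it in 47.1%.

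Genes were named where a member was the most abundant of its subfamily, was called, or reached 50 RPKM, and all other members are accounted for. The members and lists were chosen with earlier results of these data known. Gene positions and promoter sequences come from RefSeq GRCm38.p6. Scripts, written in Python 3.11.15 with scipy 1.17.1, pandas 2.3.3 and numpy 2.4.6, were tested on simulated data. In all, 8 alternative settings were run, 1 of them (the Ugt1a transcripts as 1 locus) added after seeing the data. A few items, among them 1 searched promoter motif, are not reported here.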

Additional observations from a re-analysis of the deposited data

How the results depend on the processing

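Of the values for the families, the members and the lists of conjugation genes, 89 kept their value within the limits set for a move and 23 moved. No direction reversed among them. Of the values for single genes, 282 kept theirs and 51 moved, and Gstm4, Gstm5 and Gstt2 fell below 0 when scaled to the median gene. The set called other genes of conjugation here is wider than the list of other conjugating enzymes. It holds that list and the lists for UDP-glucuronic acid supply, PAPS supply, glutathione and microsomal transferases. It also holds the NRF2 targets and the regulators. With a pseudocount of 1 RPKM, the Sult median was -0.91, and Ugt1a1 and Sult1b1 lost their calls. The median of the other genes of conjugation was then -0.52, with 8 called higher and 17 lower. At the main setting these calls were 9 and 21. Of the 9 higher, 6 were NRF2 targets, and the 21 lower included the regulator Hnf4a. Over all genes, the pseudocount of 1 RPKM gave 11.7% higher and 4.66% lower. With it, fewer genes of the lists passed the limit. Ugdh, Bpnt1, Suox and Acsm3 were no longer called lower. By construction, a limit of 2 on the log2 scale left fewer calls: 5 members lower (4 Ugt, 0 Gst and 1 Sult) and 2 higher. The other genes of conjugation then had 2 higher and 1 lower. Over all genes, 1.02% were then lower and 4.07% higher, so the share of members called higher was near that of all genes. Scaling the ratios to the median gene, which moves the median of all genes from 0.37 to 0 and the calls over all genes to 10.8% lower and 10.7% higher, gave 30 members lower (18 Ugt, 7 Gst and 5 Sult). The medians became -1.45 for Ugt, -0.45 for Gst and -1.42 for Sult. The other genes of conjugation then had 5 higher and 36 lower calls and a median of -1.01. Taking values listed at 0 as 0 put the Sult median at -1.87. A minimum mean of 5 RPKM left 39 members, 15 of them lower and 1 higher (1 Gst gene, Gstm3), and a Sult median of -1.39. Over all genes with this minimum, 7.76% were lower and 14.0% higher. Counting Ugt1a as 1 locus, chosen after seeing the data, put the Ugt median at -1.58. No paired analysis was possible because each group is 1 library. The limit for a call decides many cases, since 9 members lay between -1 and -0.8. Without replicates, the spread between animals is unknown.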
